A study of Mus musculus with 12 samples.

Results

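The ribosome biogenesis and nucleolar genes described here are 39 genes whose products make, modify and cut ribosomal RNA and assemble the ribosomal subunits. They were chosen by name, with earlier results of these data known. A probe set counted as a member when the platform annotation gave it exactly 1 gene and that gene was on the list, which held for 81 of 45101 probe sets and for 38 of the 39 genes. Mrto4 had no such probe set, because its probe set names several genes. Of the 81 probe sets, 69 passed a filter on dim signals, a signal above the array's own 40th percentile on at least 3 of 12 arrays, and 37 genes were tested. Rrp9, a protein of the U3 small nucleolar ribonucleoprotein, did not pass, with signals of 10.7 to 146.0. Each gene is given by its brightest probe set, with the others treated separately.

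Gene expression was measured on Affymetrix arrays in whole left kidneys of male mice, 8 weeks old, after ischemia and reperfusion, to ask how kidneys with and without Toll-like receptor 4 (TLR4) respond. This receptor senses bacterial lipopolysaccharide. The 4 groups were TLR4 null ischemic, TLR4 null sham, wild-type ischemic and wild-type sham kidneys, with 3 arrays each that the labels call biological replicates. TLR4 null mice were of the strain C57BL/10ScNJ and wild-type mice of the strain C57BL/10. The 2 strains were purchased as such, so the loss of Tlr4 and any other difference between them cannot be told apart. All mice lost the right kidney. In ischemic mice the left renal pedicle was then clamped for 23 min, and in sham mice the clip was laid under the pedicle without closing it. Kidneys were taken at 4 h of reperfusion, so that only this time is covered. In whole kidney, fewer cells of a type and less RNA per cell cannot be told apart.

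Ribosomes are built in the nucleolus, where RNA polymerase I transcribes the ribosomal RNA precursor. Box C/D small nucleolar ribonucleoproteins guide methylation of this RNA and box H/ACA particles guide its pseudouridylation, while the small subunit processome and a series of large subunit assembly factors fold and cut it. Many of these genes are known targets of the transcription factor Myc and are known to be expressed more in cells that grow or divide.

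The deposited arrays were already on a common scale, as the mean without the outer 2% at each end was 250 on every array. This equal mean is a product of the scaling and is no evidence that the arrays were alike. Median signals ran from 61.4 to 77.6. The correlation of log2 values, taken over genes, was 0.963 to 0.979 between arrays of 1 group and 0.933 to 0.976 between groups. The Tlr4 probe set with the largest difference gave 0.901 to 3.38 on the 6 TLR4 null arrays and 65.6 to 120.4 on the 6 wild-type arrays, and this choice by its difference weakens it as a check of the labels. Markers of kidney tubules and glomeruli were present on all arrays, with a summed signal of 44612 to 56203 over the 7 of 8 that could be tested. Some markers of other cell types moved with ischemia. Of 6 neutrophil markers tested, S100a8 and S100a9 rose in both genotypes and the other 4 did not pass. Means were lower after ischemia for 3 of the 6 in TLR4 null and for 4 of the 6 in wild type, with median changes of 0.01 and -0.25 log2 units. The summed signal of the 6 was 635 to 985 in TLR4 null ischemic kidneys against 403 to 634 in TLR4 null sham kidneys, and 956 to 1487 in wild-type ischemic kidneys against 591 to 728 in wild-type sham kidneys. Of 5 endothelial markers, Kdr, Tek and Emcn fell in TLR4 null and Tek fell in wild type, and 0 rose. Their summed signal was 1651 to 1904 in TLR4 null ischemic kidneys against 2221 to 2396 in TLR4 null sham kidneys, and 1975 to 2399 in wild-type ischemic kidneys against 2528.5 to 2999.9 in wild-type sham kidneys, without overlap. Of 5 macrophage markers, Cd68 rose in both genotypes, C1qa fell in TLR4 null and Csf1r fell in wild type. Their sums were 1659 to 1901 in TLR4 null ischemic against 1835 to 1916.5 in TLR4 null sham kidneys, and, without overlap, 1953 to 2068 in wild-type ischemic against 2148.5 to 2367 in wild-type sham kidneys. Of 4 markers of dividing cells, 0 passed limma's ischemic against sham test in either genotype (1 in TLR4 null and 0 in wild type at an unadjusted p under 0.05). The 3' over 5' signal ratio of the actin control, a sign of RNA quality, was 1.73 to 2.01 in TLR4 null ischemic against 1.75 to 1.85 in TLR4 null sham kidneys, and 1.88 to 1.99 in wild-type ischemic against 1.68 to 1.82 in wild-type sham kidneys. The part of these shifts in the results below was not tested.

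After ischemia and reperfusion, ribosome biogenesis genes moved upward in both genotypes, led by Ppan, Nop58, Nop56, Gnl3, Gtpbp4 and Tsr1. In TLR4 null kidneys 19 of 37 genes rose and 0 fell (limma, adjusted p under 0.05), while 9.86% of all 14316 genes tested rose and 11.7% fell. In wild-type kidneys 19 of 37 rose and 0 fell, while 9.18% of all genes rose and 10.5% fell. At an unadjusted p under 0.05, 0 genes were lower in TLR4 null and 1, Imp3, was lower in wild type. The rises that passed ran from 0.40 to 1.30 log2 units in TLR4 null kidneys, with a median of 0.87, and from 0.40 to 1.41 in wild type, with a median of 0.81. At least 2-fold rises were seen in 6 genes in TLR4 null kidneys (2.51% of all genes) and in 7 in wild type (2.42%). The median change over all 37 genes was 0.49 in TLR4 null and 0.45 in wild type, against -0.07 and -0.09 over all genes tested. A change here is a difference of log2(signal + 15), so that it comes out too small for dim genes, and is given ± its standard error from the limma fit with 3 arrays a group.

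Both genotypes shared 17 of the genes that rose (6.98% of all genes rose in both). These were Nop56, Nop58, Gar1, Nolc1, Ddx21, Mybbp1a, Tsr1, Bms1, Wdr43, Wdr75, Heatr1, Nop14, Gtpbp4, Gnl3, Ppan, Nip7 and Rrp1b. Fbl and Ncl passed in TLR4 null kidneys alone, and Dkc1 and Rrs1 in wild-type kidneys alone. The other 16 passed in neither genotype. The 3 ischemic arrays lay above the 3 sham arrays without overlap for 22 genes in TLR4 null kidneys (13.9% of all genes) and for 21 in wild type (15.6%), and lay below them for 0 genes in TLR4 null (20.1%) and 0 in wild type (23.7%). Group means were higher after ischemia for 34 of 37 genes in TLR4 null and for 33 of 37 in wild type. Over all 14316 genes tested they were higher for 5965 in TLR4 null and for 5695 in wild type.

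**Figure D1:**
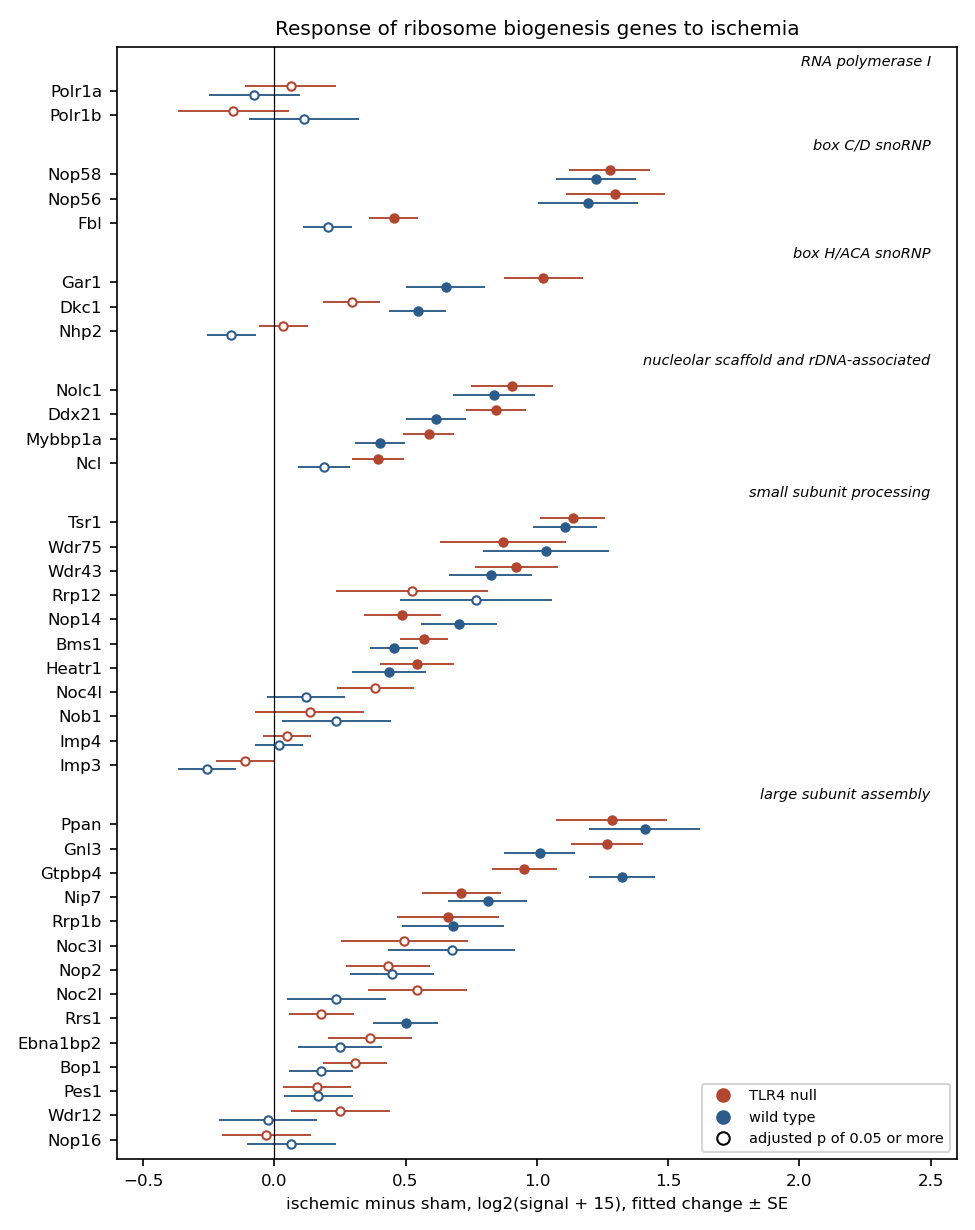
Change of each ribosome biogenesis gene after ischemia (ischemic minus sham, log2 units, with standard error), in TLR4 null and wild-type kidneys, by role. Filled points passed an adjusted p of 0.05, and the 19 filled points in each genotype all lie above 0.

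**Figure D2:**
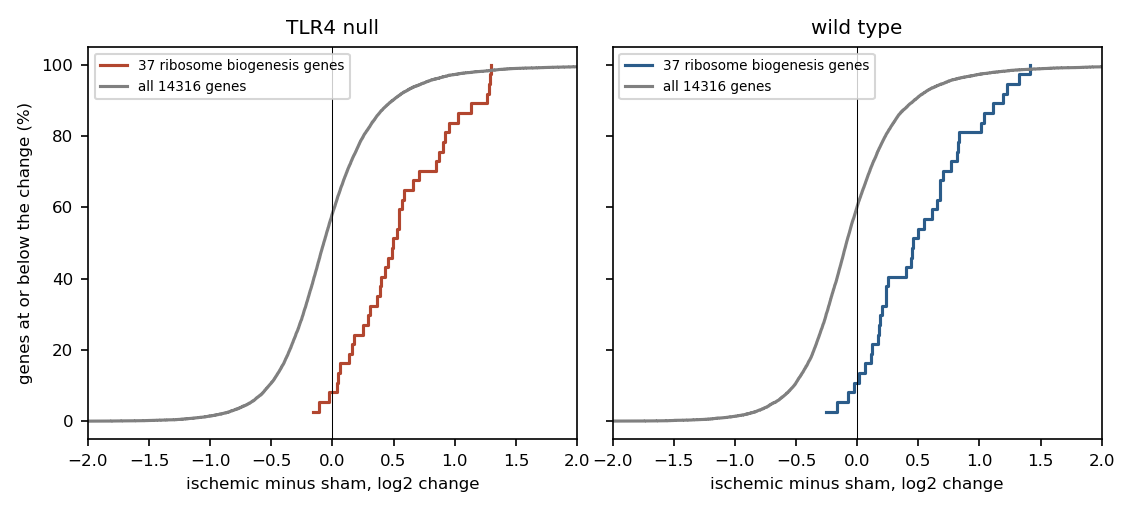
Cumulative share of genes (%) at or below a given change (ischemic minus sham, log2 units), for the 37 ribosome biogenesis genes and for all 14316 genes tested, in TLR4 null (left) and wild type (right). The ribosome biogenesis curve lies to the right of the curve of all genes, with medians of 0.49 against -0.07 in TLR4 null and 0.45 against -0.09 in wild type.

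The promoters of the 6 genes with the largest mean rise over both genotypes are shown, because they are the regulatory sequence next to the genes that moved most. The sequences are those of RefSeq on GRCm38.p6, from 250 bases before to 50 bases after the transcript start used in its table, read 5′ to 3′ on the gene's strand. They are Ppan at chr9:20887925-20888224 on the plus strand, Nop58 at chr1:59684756-59685055 on the plus strand, Nop56 at chr2:130274162-130274461 on the plus strand, Gnl3 at chr14:31019082-31019381 on the minus strand, Gtpbp4 at chr13:8995963-8996262 on the minus strand and Tsr1 at chr11:74897830-74898129 on the plus strand. Capitals mark exact matches, on either strand, to 1 of 4 short motifs, the E-box CACGTG, the ETS motif CCGGAAG, the NRF1 motif (GCGCA followed directly by TGCGC) and CCAAT, and no 2 matches overlap here.
Ppan: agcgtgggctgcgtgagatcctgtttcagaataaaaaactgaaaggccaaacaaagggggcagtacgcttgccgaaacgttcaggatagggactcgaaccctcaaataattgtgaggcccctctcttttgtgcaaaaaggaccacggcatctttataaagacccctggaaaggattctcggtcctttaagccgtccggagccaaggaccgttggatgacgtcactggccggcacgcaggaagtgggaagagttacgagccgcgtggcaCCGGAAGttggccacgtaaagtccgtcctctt
Nop58: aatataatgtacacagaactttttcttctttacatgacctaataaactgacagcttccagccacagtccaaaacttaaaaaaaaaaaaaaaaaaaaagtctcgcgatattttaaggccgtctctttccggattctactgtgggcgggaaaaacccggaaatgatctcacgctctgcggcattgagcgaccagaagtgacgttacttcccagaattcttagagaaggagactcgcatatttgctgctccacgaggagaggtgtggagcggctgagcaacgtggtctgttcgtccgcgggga
Nop56: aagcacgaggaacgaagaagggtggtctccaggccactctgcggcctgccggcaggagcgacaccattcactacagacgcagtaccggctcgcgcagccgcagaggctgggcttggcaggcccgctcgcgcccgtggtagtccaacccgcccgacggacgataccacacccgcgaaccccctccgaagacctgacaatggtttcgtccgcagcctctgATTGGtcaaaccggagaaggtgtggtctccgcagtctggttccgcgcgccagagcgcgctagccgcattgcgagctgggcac
Gnl3: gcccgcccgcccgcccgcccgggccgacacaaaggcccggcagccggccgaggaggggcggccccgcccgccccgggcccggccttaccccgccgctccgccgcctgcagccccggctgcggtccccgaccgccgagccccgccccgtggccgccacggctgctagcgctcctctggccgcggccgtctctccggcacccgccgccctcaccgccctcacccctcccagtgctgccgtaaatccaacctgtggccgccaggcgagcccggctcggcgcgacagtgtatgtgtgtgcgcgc
Gtpbp4: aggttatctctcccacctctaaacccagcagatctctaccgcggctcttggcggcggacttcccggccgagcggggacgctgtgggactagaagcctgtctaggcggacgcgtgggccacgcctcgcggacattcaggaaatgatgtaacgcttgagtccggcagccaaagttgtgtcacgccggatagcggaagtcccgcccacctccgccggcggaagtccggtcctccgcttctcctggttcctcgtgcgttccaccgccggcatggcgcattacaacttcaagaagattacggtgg
Tsr1: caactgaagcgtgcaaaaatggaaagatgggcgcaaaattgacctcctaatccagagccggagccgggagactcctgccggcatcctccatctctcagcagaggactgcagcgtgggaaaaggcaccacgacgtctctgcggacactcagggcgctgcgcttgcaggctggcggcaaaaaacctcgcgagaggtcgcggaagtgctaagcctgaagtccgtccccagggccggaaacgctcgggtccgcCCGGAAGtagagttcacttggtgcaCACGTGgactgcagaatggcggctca
Ppan holds 1 ETS match that starts at base 19 after the transcript start. Tsr1 holds an ETS match from base -1 and an E-box from base 25, and Nop56 holds CCAAT on the minus strand from base -32. Nop58, Gnl3 and Gtpbp4 hold none of the 4 strings in this window. Of the 37 genes, 33 had a promoter in the table. The E-box occurred in 6 of these 33 (18.2%), against 11% of the 11484 tested genes with a promoter. It was found in 3 of the 17 genes that rose in both genotypes (17.6%) and in 3 of the 14 with a promoter that passed in neither (21.4%). The ETS motif occurred in 12 of 33 (36.4%), against 17.3% of the tested genes, with 7 of 17 (41.2%) among those that rose in both genotypes and 5 of 14 (35.7%) among those that passed in neither. CCAAT occurred in 9 of 33 (27.3%), against 42.1% of the tested genes, and the NRF1 string in 0 of 33, against 2.02%. Over all 32851 promoters of the table the shares were 7.15% for the E-box, 8.86% for ETS, 37.4% for CCAAT and 0.971% for NRF1. The motifs were chosen after the values had been seen, and a match describes the letters only.

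Of RNA polymerase I, 2 subunits were tested as members, and neither was called in either genotype. Polr1a, the largest subunit, gave signals of 210.5, 219 and 138 in TLR4 null ischemic kidneys, against 173, 186 and 173 in TLR4 null sham kidneys. In wild type it gave 161, 127 and 159 in ischemic kidneys, against 139, 162 and 173 in sham kidneys. The groups overlapped in both genotypes, with changes of 0.06 ± 0.17 in TLR4 null (limma, adjusted p = 0.849) and -0.08 ± 0.17 in wild type (adjusted p = 0.807). A second, dimmer Polr1a probe set was higher by 0.67 in TLR4 null and by 0.14 in wild type, without passing. On it the TLR4 null groups did not overlap (limma, unadjusted p = 0.0229, adjusted p = 0.102), and the wild-type groups did. Polr1b, the second-largest subunit, gave 206, 224 and 123 in TLR4 null ischemic kidneys, against 199, 183 and 222 in TLR4 null sham kidneys. Wild-type values were 292, 168 and 198 after ischemia, against 195, 189.7 and 205 after sham surgery. These groups overlapped too, and the changes were -0.16 ± 0.21 in TLR4 null (limma, adjusted p = 0.67) and 0.11 ± 0.21 in wild type (adjusted p = 0.761).

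All 3 core proteins of box C/D particles that were tested rose in TLR4 null kidneys, and 2 of 3 rose in wild type, with Nop56 and Nop58 up more than 2-fold in both. Nop58 and Nop56 are the paired scaffold proteins of the particle. Nop58 gave signals of 347, 361 and 332 in TLR4 null ischemic kidneys, against 154, 119.9 and 131 in TLR4 null sham kidneys, and 355, 378 and 385 in wild-type ischemic kidneys, against 116, 152 and 192 in wild-type sham kidneys. Every ischemic array lay above every sham array, with changes of 1.28 ± 0.15 in TLR4 null (limma, adjusted p = 3.27e-05) and 1.23 ± 0.15 in wild type (adjusted p = 4.68e-05). Nop56, whose promoter holds the CCAAT match shown above, gave 669, 713 and 438 in TLR4 null ischemic kidneys, against 248, 282 and 179 in TLR4 null sham kidneys. The wild-type arrays read 648, 535 and 659 after ischemia, against 267, 296 and 219 after sham surgery. Again no ischemic array overlapped a sham array, and Nop56 rose by 1.30 ± 0.19 in TLR4 null (limma, adjusted p = 0.000173) and 1.19 ± 0.19 in wild type (adjusted p = 0.000359). Fbl, the methyltransferase of the particle, changed less. It gave 1038, 1033 and 946 in TLR4 null ischemic kidneys, against 675, 777 and 739 in TLR4 null sham kidneys, and 972, 858 and 971 in wild-type ischemic kidneys, against 873, 800.4 and 752 in wild-type sham kidneys. The TLR4 null groups were apart and the wild-type groups overlapped, with changes of 0.45 ± 0.09 in TLR4 null (limma, adjusted p = 0.00264) and 0.20 ± 0.09 in wild type (adjusted p = 0.148). The difference between the genotypes' responses did not pass (0.25 ± 0.13, limma, adjusted p = 0.814). The call on Fbl rests on 1 probe set. A second one was lower by 0.31 in TLR4 null ischemic kidneys without passing and higher by 0.20 in wild type, and with the mean of both the TLR4 null change was 0.07 (limma, adjusted p = 0.725).

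Among the 3 box H/ACA proteins tested, 1 rose in TLR4 null kidneys and 2 rose in wild type. Gar1, a core protein of the particle, gave signals of 631, 916 and 568 in TLR4 null ischemic kidneys, against 289, 358 and 352 in TLR4 null sham kidneys. Its wild-type signals were 639.8, 544 and 637 after ischemia, against 375, 357 and 409 after sham surgery. Ischemic and sham arrays did not overlap in either genotype, with TLR4 null ischemic replicate 2 well above the rest, and the changes were 1.02 ± 0.15 in TLR4 null (limma, adjusted p = 0.000197) and 0.65 ± 0.15 in wild type (adjusted p = 0.00649). Dkc1, the pseudouridine synthase, gave 567, 616 and 508 in TLR4 null ischemic kidneys, against 439, 474 and 454 in TLR4 null sham kidneys. It gave 623, 760.5 and 629.7 in wild-type ischemic kidneys, against 490.4, 414 and 458 in wild-type sham kidneys. All ischemic arrays lay above the sham arrays of their genotype, but only the wild-type change passed, at 0.29 ± 0.11 in TLR4 null (limma, adjusted p = 0.0709) and 0.55 ± 0.11 in wild type (adjusted p = 0.00241). The TLR4 null change passed without TLR4 null ischemic replicate 3 (0.37, limma, adjusted p = 0.0366) and with array weights (0.31, adjusted p = 0.0397). The wild-type call rests on 1 of 3 probe sets. The other 2 changed by 0.23 and 0.33 in TLR4 null and by 0.20 and 0.39 in wild type, and passed in neither. Its interaction was -0.25 ± 0.16 and did not pass (limma, adjusted p = 0.834). Nhp2, which binds the guide RNA in these particles, changed by 0.03 ± 0.09 in TLR4 null and by -0.16 ± 0.09 in wild type, and passed in neither.

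The 4 nucleolar scaffold and rDNA-associated proteins all rose in TLR4 null kidneys, and 3 of them rose in wild type. Ddx21, a nucleolar RNA helicase, gave signals of 380.4, 415 and 424 in TLR4 null ischemic kidneys, against 213, 207 and 239.9 in TLR4 null sham kidneys, and 409.7, 338 and 359.9 in wild-type ischemic kidneys, against 227, 249 and 229 in wild-type sham kidneys. The groups were apart in both genotypes, and Ddx21 rose by 0.84 ± 0.11 in TLR4 null (limma, adjusted p = 8.63e-05) and 0.62 ± 0.11 in wild type (adjusted p = 0.00124). Nolc1, a chaperone of small nucleolar ribonucleoproteins, gave 379, 451 and 350.2 in TLR4 null ischemic kidneys, against 218, 196 and 192 in TLR4 null sham kidneys. On the wild-type arrays it gave 458, 295 and 410.2 after ischemia, against 202, 189.5 and 231 after sham surgery. Wild-type ischemic replicate 2 was the lowest ischemic array and still lay above all sham arrays, and the rises were 0.90 ± 0.15 in TLR4 null (limma, adjusted p = 0.000645) and 0.84 ± 0.15 in wild type (adjusted p = 0.00128). Ncl, nucleolin, one of the most abundant nucleolar proteins, gave 2687, 3299 and 2796 in TLR4 null ischemic kidneys, against 1911, 2460.1 and 2307 in TLR4 null sham kidneys. It gave 2739.6, 2742 and 2827 in wild-type ischemic kidneys, against 2344, 2501 and 2439 in wild-type sham kidneys. Neither genotype's groups overlapped, yet only the TLR4 null change passed, at 0.40 ± 0.10 in TLR4 null (limma, adjusted p = 0.00929) and 0.19 ± 0.10 in wild type (adjusted p = 0.206). With the mean of its probe sets the TLR4 null change of Ncl was 0.25 (limma, adjusted p = 0.196), and with arrays scaled to one median it was 0.41 (adjusted p = 0.0977). Mybbp1a, a nucleolar Myb-binding protein, rose by 0.59 ± 0.10 in TLR4 null (limma, adjusted p = 0.000472) and 0.40 ± 0.10 in wild type (adjusted p = 0.00787).

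**Figure D3:**
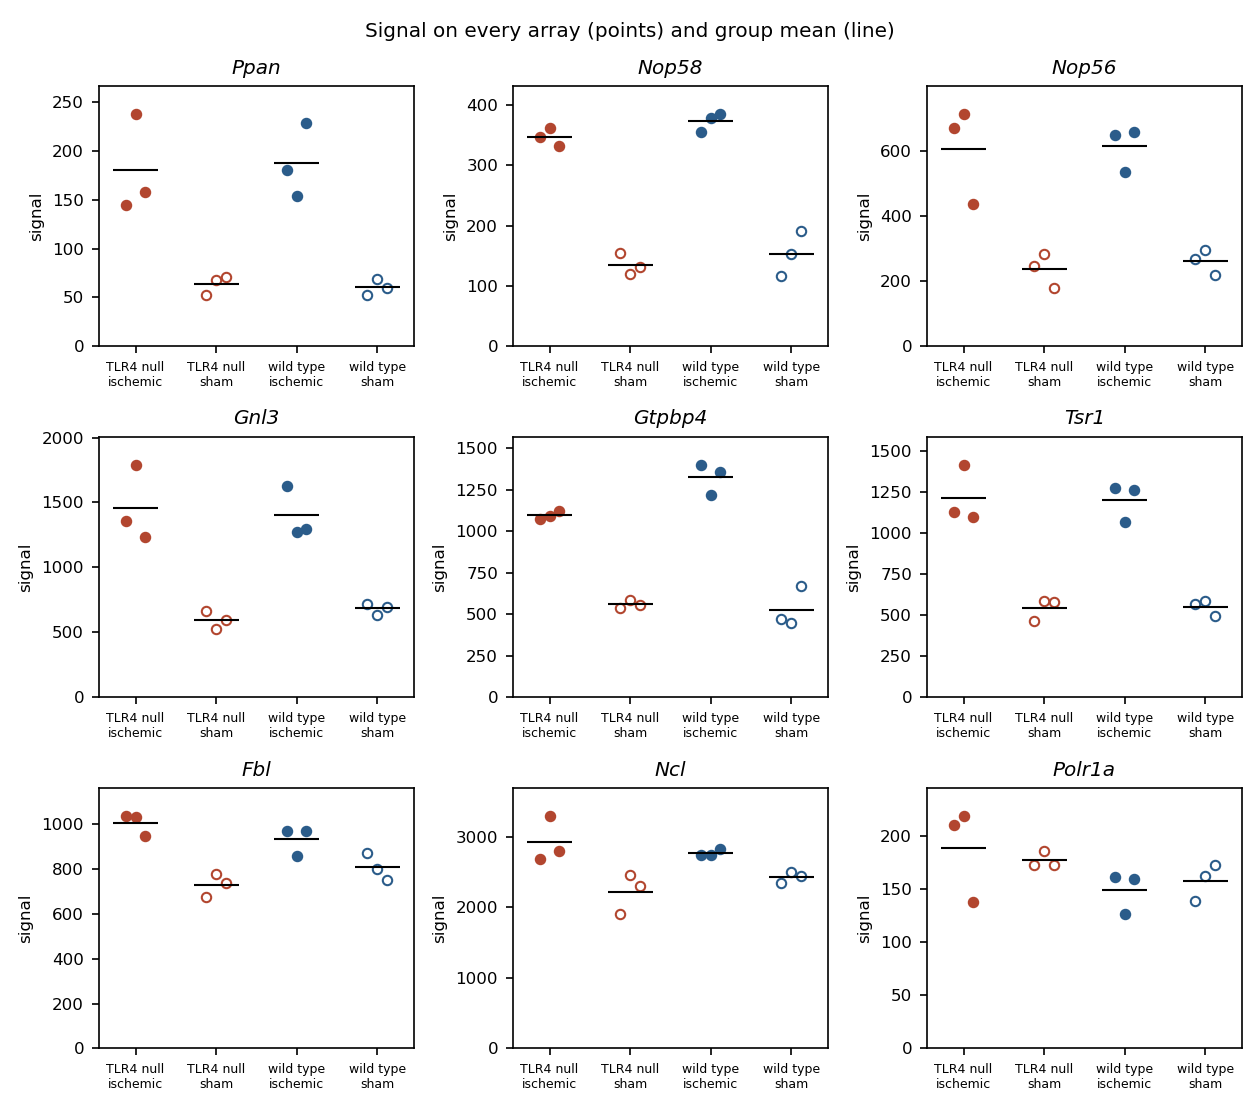
Signal of 9 ribosome biogenesis genes on every array (points, linear scale from 0) with the group mean (line), for TLR4 null ischemic, TLR4 null sham, wild-type ischemic and wild-type sham kidneys. Ppan, Nop58, Nop56, Gnl3, Gtpbp4 and Tsr1 have no overlap between ischemic and sham arrays, while the Polr1a groups overlap.

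Of 11 small subunit factors tested, 6 rose in TLR4 null kidneys and the same 6 rose in wild type. Tsr1, a factor of late small subunit maturation, gave signals of 1129, 1414 and 1097 in TLR4 null ischemic kidneys, against 465, 584 and 579 in TLR4 null sham kidneys, and 1273, 1065 and 1259 in wild-type ischemic kidneys, against 565, 584 and 496 in wild-type sham kidneys. The lowest ischemic array of either genotype lay far above the highest sham array, and Tsr1 rose by 1.14 ± 0.12 in TLR4 null (limma, adjusted p = 1.15e-05) and 1.11 ± 0.12 in wild type (adjusted p = 1.41e-05). Its promoter is the one of the 6 shown above that holds an E-box. Bms1, a GTPase of the small subunit processome, gave 1685, 1726 and 1644 in TLR4 null ischemic kidneys, against 1219.7, 1049 and 1129.9 in TLR4 null sham kidneys. Wild-type arrays gave 1579, 1493 and 1812 after ischemia, against 1191, 1097 and 1257 after sham surgery. Ischemic and sham arrays were apart in both genotypes at a smaller step, with rises of 0.57 ± 0.09 in TLR4 null (limma, adjusted p = 0.000414) and 0.45 ± 0.09 in wild type (adjusted p = 0.00244). Wdr43, the counterpart of a yeast processome protein, gave 438, 647 and 457 in TLR4 null ischemic kidneys, against 301, 249 and 235 in TLR4 null sham kidneys. Its values were 564, 429 and 567 in wild-type ischemic kidneys, against 281, 260.3 and 315 in wild-type sham kidneys. The groups did not overlap, TLR4 null ischemic replicate 2 was the highest array, and the rises were 0.92 ± 0.16 in TLR4 null (limma, adjusted p = 0.000657) and 0.82 ± 0.16 in wild type (adjusted p = 0.00167).

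The other 3 small subunit factors that rose were Wdr75, Heatr1 and Nop14, all known in yeast as processome components. Wdr75 rose by 0.87 ± 0.24 in TLR4 null (limma, adjusted p = 0.0169) and 1.03 ± 0.24 in wild type (adjusted p = 0.00651), although the TLR4 null groups overlapped. Without single TLR4 null arrays its TLR4 null change did not pass in 4 of 6 cases, at 0.66 to 0.79 (limma, adjusted p of 0.0656 to 0.0808). With the mean of its probe sets Wdr75 passed in neither genotype, at 0.48 in TLR4 null (limma, adjusted p = 0.135) and 0.47 in wild type (adjusted p = 0.152). Nop14 rose by 0.49 ± 0.15 in TLR4 null (limma, adjusted p = 0.0259) and 0.70 ± 0.15 in wild type (adjusted p = 0.00295), and its TLR4 null change did not pass without TLR4 null ischemic replicate 2 (0.36, limma, adjusted p = 0.121) or TLR4 null sham replicates 1 (0.43, adjusted p = 0.0811) or 2 (0.48, adjusted p = 0.0617). The TLR4 null call of Nop14 was also lost with arrays scaled to one median (0.51, limma, adjusted p = 0.0683) and with only the arrays compared (0.49, adjusted p = 0.0797). Heatr1 rose by 0.54 ± 0.14 in TLR4 null (limma, adjusted p = 0.0119) and 0.44 ± 0.14 in wild type (adjusted p = 0.04). Its wild-type call was lost without any 1 of 5 wild-type arrays, at 0.37 to 0.46 (limma, adjusted p of 0.0786 to 0.144), and its TLR4 null call without TLR4 null ischemic replicate 1 (0.40, adjusted p = 0.064) or sham replicate 3 (0.46, adjusted p = 0.0605). The wild-type call of Heatr1 was lost too with arrays scaled to one median (0.52, limma, adjusted p = 0.0578), without the filter on dim signals (0.44, adjusted p = 0.0533) and with eBayes without a trend (0.44, adjusted p = 0.0799). The 5 that passed in neither genotype were Imp3, Imp4, Noc4l, Rrp12 and Nob1. Imp3 and Imp4, which sit on the U3 small nucleolar RNA, changed by -0.11 ± 0.11 and 0.05 ± 0.09 in TLR4 null and by -0.26 ± 0.11 and 0.02 ± 0.09 in wild type. Nob1, the endonuclease of the last cut of small subunit RNA, changed by 0.13 ± 0.21 in TLR4 null and 0.24 ± 0.21 in wild type. Noc4l changed by 0.39 ± 0.15 in TLR4 null and 0.12 ± 0.15 in wild type. Rrp12, a factor of subunit export, was higher by 0.52 ± 0.29 in TLR4 null and by 0.77 ± 0.29 in wild type (limma, adjusted p = 0.233 and 0.079). It passed in wild type without wild-type ischemic replicate 2 (1.05, limma, adjusted p = 0.023) and with array weights (0.79, adjusted p = 0.04).

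Of 14 large subunit factors tested, 5 rose in TLR4 null kidneys and 6 in wild type. Ppan, the counterpart of a yeast protein needed for large subunit RNA processing, had the largest mean rise of all. It gave signals of 145, 238 and 158 in TLR4 null ischemic kidneys, against 52.1, 68.4 and 71.3 in TLR4 null sham kidneys, and 180.5, 153 and 228 in wild-type ischemic kidneys, against 52.9, 68.8 and 59.9 in wild-type sham kidneys. Every ischemic array lay above every sham array, and the rises were 1.28 ± 0.21 in TLR4 null (limma, adjusted p = 0.000487) and 1.41 ± 0.21 in wild type (adjusted p = 0.000225). This is 2.44-fold in TLR4 null and 2.66-fold in wild type on the log2(signal + 15) scale. Gtpbp4, a GTPase that joins early large subunit particles, gave 1075, 1092 and 1125 in TLR4 null ischemic kidneys, against 539, 586 and 555 in TLR4 null sham kidneys. It gave 1401, 1219 and 1357 in wild-type ischemic kidneys, against 470.1, 445 and 669.8 in wild-type sham kidneys. The wild-type ischemic arrays were the highest of all, above the TLR4 null ischemic arrays without overlap, and the rises were 0.95 ± 0.12 in TLR4 null (limma, adjusted p = 6.9e-05) and 1.32 ± 0.12 in wild type (adjusted p = 2.99e-06). Gnl3, nucleostemin, a nucleolar GTPase known from stem cells and tumour cells, gave 1360.1, 1789 and 1234 in TLR4 null ischemic kidneys, against 663, 526 and 592 in TLR4 null sham kidneys. The wild-type signals of Gnl3 were 1627, 1276 and 1298 after ischemia, against 719, 636 and 697 after sham surgery. No ischemic array overlapped a sham array, with rises of 1.27 ± 0.14 in TLR4 null (limma, adjusted p = 1.08e-05) and 1.01 ± 0.14 in wild type (adjusted p = 8.67e-05).

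Rrs1, known in yeast as an assembly factor of the large subunit, gave signals of 1025, 1155 and 844 in TLR4 null ischemic kidneys, against 888, 754 and 1024 in TLR4 null sham kidneys. It gave 1069, 1039.8 and 1189.6 in wild-type ischemic kidneys, against 733, 792 and 791 in wild-type sham kidneys. The wild-type groups were apart and the TLR4 null groups overlapped, with changes of 0.18 ± 0.12 in TLR4 null (limma, adjusted p = 0.357) and 0.50 ± 0.12 in wild type (adjusted p = 0.00941). Both Rrs1 probe sets passed in wild type and neither passed in TLR4 null. Nip7, which binds precursor RNA, rose by 0.71 ± 0.15 in TLR4 null (limma, adjusted p = 0.00323) and 0.81 ± 0.15 in wild type (adjusted p = 0.00129), while with the mean of its probe sets the wild-type change was 0.33 (adjusted p = 0.0697). Rrp1b rose by 0.66 ± 0.19 in TLR4 null (limma, adjusted p = 0.0238) and 0.68 ± 0.19 in wild type (adjusted p = 0.0222). Its calls were lost without single arrays in 4 cases in each genotype, at 0.42 to 0.68 in TLR4 null (limma, adjusted p of 0.0537 to 0.104) and at 0.65 to 0.67 in wild type (adjusted p of 0.0569 to 0.0713). The TLR4 null call of Rrp1b was also lost with array weights (0.36, limma, adjusted p = 0.186) and with only the arrays compared (0.66, adjusted p = 0.079). With the mean of its probe sets Rrp1b passed in neither genotype, at 0.41 in TLR4 null (limma, adjusted p = 0.069) and 0.33 in wild type (adjusted p = 0.148).

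The 8 large subunit factors that passed in neither genotype include the whole PeBoW complex, which consists of Pes1, Bop1 and Wdr12 and is known to be needed for large subunit RNA processing. Pes1 changed by 0.16 ± 0.13 in TLR4 null and 0.17 ± 0.13 in wild type. Bop1 changed by 0.31 ± 0.12 in TLR4 null and 0.18 ± 0.12 in wild type, and passed in TLR4 null only with array weights (0.39, limma, adjusted p = 0.025). Wdr12 changed by 0.25 ± 0.19 in TLR4 null and -0.02 ± 0.19 in wild type. Noc2l and Noc3l, which bind each other in early large subunit particles, came close to the threshold. Noc2l changed by 0.55 ± 0.19 in TLR4 null (limma, adjusted p = 0.0508) and 0.24 ± 0.19 in wild type (adjusted p = 0.429). Noc3l changed by 0.49 ± 0.24 in TLR4 null (limma, adjusted p = 0.171) and 0.68 ± 0.24 in wild type (adjusted p = 0.0639). Nop2, an RNA methyltransferase, changed by 0.43 ± 0.16 in TLR4 null (limma, adjusted p = 0.0689) and 0.45 ± 0.16 in wild type (adjusted p = 0.0633). Noc2l, Noc3l and Nop2 passed in some of the other settings. Ebna1bp2 changed by 0.36 ± 0.16 in TLR4 null and 0.25 ± 0.16 in wild type, and Nop16 by -0.03 ± 0.17 in TLR4 null and 0.06 ± 0.17 in wild type. The values that did not pass do not show that these genes stayed the same.

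Other probe sets of the same gene did not always repeat the value of the brightest one. Over all 69 member probe sets, 29 rose in TLR4 null (8.5% of all 30304 probe sets) and 30 rose in wild type (7.71%), and 0 fell in either (8.24% and 7.91%). Of 24 genes with over 1 probe set past the filter, all probe sets had the same sign in 19 in TLR4 null, in 18 in wild type and in 16 in both. In 8 genes every probe set rose in both genotypes, namely Bms1, Ddx21, Gtpbp4, Heatr1, Mybbp1a, Nop56, Tsr1 and Wdr43. Among genes with over 1, the calls of Wdr75, Nip7 and Rrp1b rest on 1 probe set each. So do those of Fbl and Ncl in TLR4 null and of Dkc1 in wild type. Ppan, Nop58, Gnl3, Gar1 and Nop14 had 1 probe set each, so their rises could not be compared with a second one. The other Wdr75 probe set changed by 0.09 in TLR4 null and -0.10 in wild type, the other Nip7 probe set by 0.04 and -0.15, and the 2 other Rrp1b probe sets by 0.26 to 0.31 and by 0.07 to 0.23, none of them past the test. A second Ebna1bp2 probe set, of a kind that may bind other transcripts, changed by -0.61 in TLR4 null and -0.30 in wild type. This was opposite to the brightest one and also not past the test. The brightest probe sets of Rrs1, Gar1, Bms1, Tsr1, Nhp2 and Noc4l are also of kinds that may bind other transcripts. Gar1 and Tsr1 had no tested probe set outside these kinds. The other probe set of Bms1 passed in both genotypes and that of Rrs1 in wild type.

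**Figure D4:**
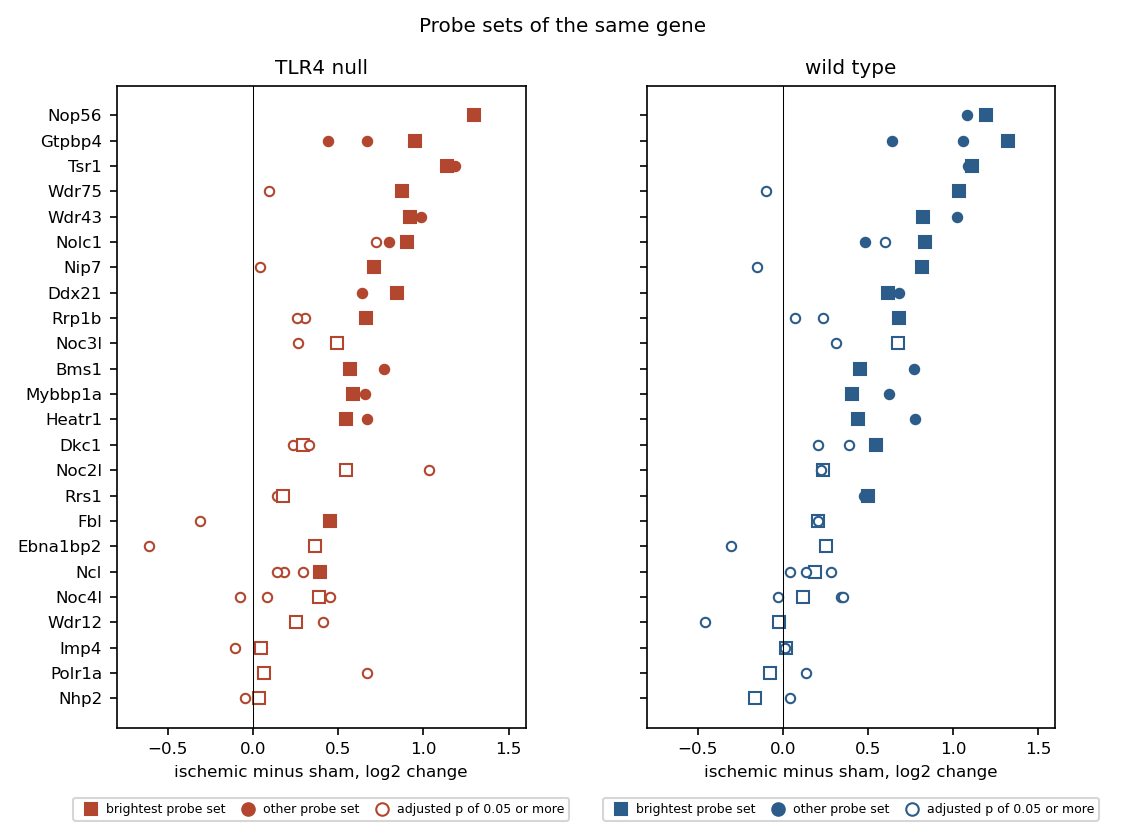
Change after ischemia (ischemic minus sham, log2 units) of every tested probe set of the 24 genes with more than 1, in TLR4 null (left) and wild type (right). Squares are the brightest probe set of a gene, circles the others, and open symbols did not pass an adjusted p of 0.05. Wdr75, Nip7 and Fbl show probe sets that differ from the brightest one.

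The shift was seen on each of the 6 ischemic arrays. Relative to the mean of the sham arrays of the same genotype, the median over the 37 genes was 0.43, 0.60 and 0.32 higher on the TLR4 null ischemic arrays, against -0.05, 0.04 and 0.002 on the TLR4 null sham arrays. It was 0.54, 0.34 and 0.54 higher on the wild-type ischemic arrays, against 0.03, -0.05 and 0.03 on the wild-type sham arrays. Over all genes the same median lay between -0.10 and -0.02 on the ischemic arrays. Arrays of a group differed together across the genes. TLR4 null ischemic replicate 2 had the highest signal of its group for 13 of the 17 genes that rose in both genotypes, and wild-type ischemic replicate 2 had the lowest signal of its group for 13 of the 17.

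**Figure D5:**
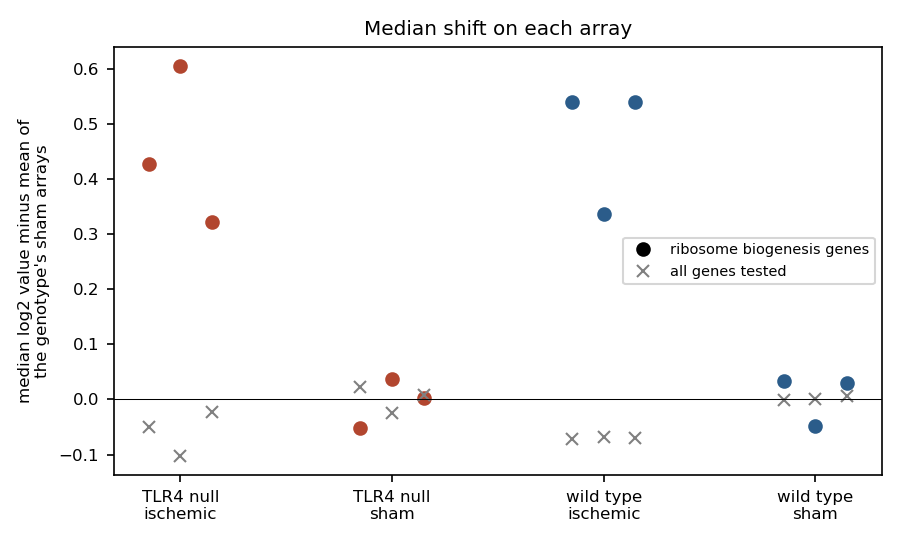
Median log2 value of the 37 ribosome biogenesis genes (circles) and of all genes tested (crosses) on each array, relative to the mean of the sham arrays of the same genotype. The 6 ischemic arrays lie between 0.32 and 0.60 for the ribosome biogenesis genes and between -0.10 and -0.02 for all genes.

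The response of the ribosome biogenesis genes to ischemia was not shown to differ between the genotypes. The interaction, the TLR4 null response minus the wild-type response, passed for 0 of 37 genes in limma, and 0 were under an unadjusted p of 0.05. It passed for 0% of all genes, of which 910 were under an unadjusted p of 0.05. The response was larger in TLR4 null for 22 genes and smaller for 15, with a median difference of 0.07. Over all genes tested it was larger for 7341 and smaller for 6975. The smallest p was that of Gtpbp4, at -0.37 ± 0.18 (limma, adjusted p = 0.786). Next came Fbl (0.25 ± 0.13, adjusted p = 0.814) and Rrs1 (-0.32 ± 0.17, adjusted p = 0.818). These values are of the brightest probe sets. Of all 69 member probe sets, 2 were under an unadjusted p of 0.05 and 0 passed in limma. They were the second probe set of Rrs1, at -0.34 (unadjusted p = 0.0183, adjusted p = 0.71), and the second probe set of Fbl, at -0.52 (unadjusted p = 0.0498, adjusted p = 0.8005), which has the opposite sign to the brightest one. The 95% confidence interval of the difference lay within 1 log2 unit on either side of 0 for 36 of 37 genes, with Rrp12 as the exception at a lower bound of -1.12. For Ppan it ran from -0.76 to 0.51. Dkc1, Fbl, Ncl and Rrs1, each past the threshold in 1 genotype, are therefore not shown to differ between genotypes.

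The genotypes also did not differ past the test within either surgery. In ischemic kidneys 0 of 37 genes passed between TLR4 null and wild type (0.657% of all genes in either direction), with differences from -0.27 to 0.29 and unadjusted p under 0.05 for Dkc1 (-0.24 ± 0.11, limma, adjusted p = 0.415) and Gtpbp4 (-0.27 ± 0.12, adjusted p = 0.436). These 2 were also the genes lower in TLR4 null ischemic kidneys without overlap (7.63% of all genes), and 0 genes were higher without overlap (7.03%). In sham kidneys 0 of 37 passed (0.314% of all genes), with 0 at an unadjusted p under 0.05 in limma and differences from -0.25 to 0.19, and without overlap 0 genes were higher (8.12%) and 1, Mybbp1a, was lower (8.62%). These counts and ranges are of the brightest probe sets. Another Noc2l probe set differed by -1.06 in sham kidneys, without overlap (limma, unadjusted p = 0.0148, adjusted p = 0.417). In ischemic kidneys other probe sets ran from -0.47 for Ebna1bp2 to 0.58 for Wdr12. Others without overlap were of Noc4l (lower) and Rrs1 (higher) in sham kidneys. In ischemic kidneys they were of Nolc1 (higher), Rrs1 and Noc4l (lower). No member probe set passed between genotypes. Markers of dividing cells did differ between these same groups. Their summed signal was 147 to 163 in TLR4 null ischemic kidneys against 521 to 582 in wild-type ischemic kidneys, and 87.8 to 142 in TLR4 null sham kidneys against 527 to 833 in wild-type sham kidneys. Of the 6 markers listed, Ccnb1 and Bub1 could not be tested. Of the 4 tested, Mki67, Top2a and Cdk1 passed in ischemic kidneys, and all 4, with Birc5, passed in sham kidneys. Each was lower in TLR4 null. Their TLR4 null signals were dim, at 6.82 to 38.6 for Mki67, 37.8 to 71.0 for Top2a, 11.3 to 57.2 for Cdk1 and 10.0 to 62.1 for Birc5. On all TLR4 null arrays Mki67 lay under the lowest 40th percentile of any array (40.3). It therefore passed the filter through wild-type arrays alone.

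The wider pathway followed with smaller and mixed changes. Of 128 further genes of ribosome biogenesis listed by role, 120 were tested. In TLR4 null kidneys 34 rose and 4 fell, and in wild type 25 rose and 2 fell, with median changes of 0.23 and 0.16. Over all genes tested 9.86% rose and 11.7% fell in TLR4 null, and 9.18% rose and 10.5% fell in wild type. Among large subunit factors 17 of 46 rose in TLR4 null and 15 of 46 in wild type, with 1 fall in each. Among small subunit factors 12 of 41 rose and 2 fell in TLR4 null, and 6 rose and 1 fell in wild type. Of 12 other nucleolar proteins 4 rose and 1 fell in TLR4 null, and 2 rose in wild type. Polymerase I and rDNA transcription factors showed 0 called of 10 in TLR4 null (3 at an unadjusted p under 0.05 in limma) and 1 in wild type, Taf1d, a subunit of the promoter selectivity complex, at 0.41 ± 0.15 in TLR4 null (limma, adjusted p = 0.0633) and 0.66 ± 0.15 in wild type (adjusted p = 0.00557). Polr1c, a subunit shared by polymerases I and III, changed by 0.25 ± 0.11 in TLR4 null and 0.26 ± 0.11 in wild type and did not pass. Of 11 RNA exosome genes, 1 rose in each genotype, a share near that of all genes tested (9.86% in TLR4 null and 9.18% in wild type). It was the nuclease Dis3, at 0.47 ± 0.12 in TLR4 null (limma, adjusted p = 0.0109) and 0.41 ± 0.12 in wild type (adjusted p = 0.0246). Its wild-type call was lost without any 1 of 4 wild-type arrays, at 0.35 to 0.43 (limma, adjusted p of 0.0527 to 0.103).

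Eif6, which keeps the large subunit from joining the small one, had the smallest p of the large subunit list for the change averaged over both genotypes. It gave signals of 2789.5, 3256 and 2409 in TLR4 null ischemic kidneys, against 1107, 1267 and 1249 in TLR4 null sham kidneys, and 2607, 2139 and 2323 in wild-type ischemic kidneys, against 1379, 1276 and 1410.0 in wild-type sham kidneys. The groups were far apart in both genotypes, with rises of 1.20 ± 0.11 in TLR4 null (limma, adjusted p = 2.15e-06) and 0.79 ± 0.11 in wild type (adjusted p = 0.000111). Brix1, another large subunit factor, rose by 0.71 ± 0.08 in TLR4 null (limma, adjusted p = 2.21e-05) and 0.74 ± 0.08 in wild type (adjusted p = 1.41e-05). Utp4, a processome protein, rose by 0.85 ± 0.14 in TLR4 null (limma, adjusted p = 0.000629) and 1.11 ± 0.14 in wild type (adjusted p = 6.44e-05). Znhit6 and Naf1, which help to assemble box C/D and box H/ACA particles, rose by 0.78 and 0.62 in TLR4 null and by 0.70 and 0.56 in wild type.

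Utp20, a component of the small subunit processome, went the other way. It gave signals of 450.4, 588 and 581 in TLR4 null ischemic kidneys, against 953, 1016 and 996 in TLR4 null sham kidneys, and 588, 538 and 557 in wild-type ischemic kidneys, against 1135, 1320.4 and 1159.8 in wild-type sham kidneys. Every ischemic array lay below every sham array, and Utp20 fell, with changes of -0.86 ± 0.11 in TLR4 null (limma, adjusted p = 3.97e-05) and -1.08 ± 0.11 in wild type (adjusted p = 4.52e-06). It had 1 probe set. The other falls of the wider list, named after their values were seen, were Gnl3l (-0.37 in TLR4 null and -0.34 in wild type) and, in TLR4 null alone, Utp6 (-0.35) and Znhit3 (-0.50).

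Myc, the transcription factor known to drive many genes of this pathway, rose in both genotypes. It gave signals of 918, 1348 and 971 in TLR4 null ischemic kidneys, against 146, 137 and 239.9 in TLR4 null sham kidneys, and 1238, 1166 and 1034 in wild-type ischemic kidneys, against 173, 179 and 189.9 in wild-type sham kidneys. Every ischemic array lay well above every sham array, with rises of 2.55 ± 0.18 in TLR4 null (limma, adjusted p = 1.7e-07) and 2.56 ± 0.18 in wild type (adjusted p = 1.66e-07). Of the 8 genes of the Myc network tested, Myc alone rose, a share near that of all genes (9.86% in TLR4 null and 9.18% in wild type). Mxi1 and Mxd4, which are known to oppose it, fell in both genotypes (11.7% and 10.5% of all genes fell). The other 5, among them the related Mxd1 and Mnt, passed in neither genotype. Mxd4 was named after its value was seen. Mxi1 changed by -0.65 ± 0.10 in TLR4 null (limma, adjusted p = 0.000225) and -0.50 ± 0.10 in wild type (adjusted p = 0.00184), and Mxd4 by -0.56 in TLR4 null and -0.56 in wild type. In the p53 branch that is known to respond when nucleoli are disrupted, 4 of 7 listed genes could be tested. Of these, 2 rose in each genotype, against 9.86% of all genes in TLR4 null and 9.18% in wild type. Cdkn1a, the cell cycle inhibitor p21, rose by 1.19 ± 0.16 in TLR4 null (limma, adjusted p = 9.54e-05) and 0.95 ± 0.16 in wild type (adjusted p = 0.000669). Mdm2, the ubiquitin ligase of p53 that ribosomal proteins can bind, rose by 0.74 ± 0.18 in TLR4 null (limma, adjusted p = 0.00707) and 0.92 ± 0.18 in wild type (adjusted p = 0.0017).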

How the data were processed

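RNA of 12 kidneys was hybridised to 1 array each. The authors deposited linear signal intensity per probe set, and per the submitters' processing notes MAS5 was the tool. The sources used here name neither its version nor its target intensity, and detection calls were not used. Groups come from the labels. The platform annotation gave 1 gene to 34958 probe sets and several to 932, and 34754 of the 34958 matched RefSeq's gene table (GRCm38.p6) by Entrez ID.

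Values were taken as log2(signal + 15), the pseudocount being the 20th percentile of all signals (14.6) rounded. Control probe sets and those under the filter stated above were left out. This left 30304 probe sets and 14316 genes, each gene by its probe set with the highest mean. limma 3.58.1 in R 4.3.3 (lmFit, eBayes with a trend) fitted 4 group means on all 12 arrays with 8 residual degrees of freedom. Tests were two-sided, and the Benjamini-Hochberg adjustment ran over all genes tested. On simulated data for the wild-type comparison, 67, 67 and 66 of 14316 genes were changed by 0.5, 1 and 2 log2 units. The step found 28.4%, 67.2% and 97.0% of them, and 8 of its 136 calls were false. For the interaction these shares were 5.97%, 44.8% and 86.4%, with 6 of 97 calls false. The real wild-type comparison called far more genes (2815) and the real interaction called 0, and the adjustment is stricter where fewer genes change. The simulated spread was also drawn for each gene on its own, while real arrays of a group differed together across genes. The shares of both comparisons therefore do not carry over to the real data. Motifs and figures used Python 3.11.15 with numpy 2.4.6, pandas 2.3.3 and matplotlib 3.10.9.

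Genes given with all their values were those with the smallest p of their role over both genotypes, those called in 1 genotype, and those with the smallest interaction p. For the wider lists they were the 2 with the smallest p of each list, and Myc. The members, lists and tests were chosen with earlier results of these data known. Alternatives were other normalizations, pseudocounts, filters and probe set rules, eBayes without a trend, array weights, only the groups compared, a replicate block, and leaving out each array. With 3 arrays a group, their number limits the precision. Each p weighs a difference against the spread between arrays of a group. That spread is pooled over the 4 groups and drawn toward a trend over all genes.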

Additional observations from a re-analysis of the deposited data

Results flagged for a closer look

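The 3' control probe set of 18S ribosomal RNA, which no comparison above uses, was brighter on ischemic than on sham arrays. It gave 2287, 2646 and 1410.4 in TLR4 null ischemic kidneys, against 439, 304 and 476 in TLR4 null sham kidneys. In wild type it gave 540.1, 535 and 574 in ischemic kidneys, against 373, 406 and 392 in sham kidneys. The means were 2114 ± 636 in TLR4 null ischemic against 406 ± 90.8 in TLR4 null sham kidneys, and 549.6 ± 21.4 in wild-type ischemic against 390.5 ± 16.6 in wild-type sham kidneys (SD, n = 3 arrays each). The 5' and middle probe sets of the same RNA did not separate in this way, with means of 236 and 389 in TLR4 null ischemic, 211 and 341 in TLR4 null sham, 229.9 and 332 in wild-type ischemic and 232 and 354 in wild-type sham kidneys. These differences were not tested.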

How the results depend on the processing

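After ischemia, the count of ribosome biogenesis genes that passed stayed within 1.5 times the value given and their median change stayed above 0 in both genotypes. Under 12 other settings the count ranged from 16 to 23 in TLR4 null and from 16 to 22 in wild type, all of them rises, and without single arrays from 16 to 21 and from 17 to 21. The median change ranged from 0.409 to 0.55 in TLR4 null and from 0.441 to 0.543 in wild type, and without single arrays from 0.434 to 0.581 and from 0.403 to 0.535. Interaction and genotype counts were 0 in every setting that gave one, and their medians, all near 0, changed sign between settings, at -0.025 to 0.145 for the interaction, -0.096 to 0.085 between ischemic kidneys and -0.054 to 0.015 between sham kidneys. Averaging the probe sets of each gene gave 16 in each genotype, and array weights gave 23 in TLR4 null and 22 in wild type. Of the 19 genes called, 13 in TLR4 null and 15 in wild type passed in all settings that could test them. Gar1 and Tsr1, counted in both, could not be tested without the probe sets of kinds that may bind other transcripts. No change of a named gene that passed in any setting had the opposite sign to the value given, while several that passed in none changed sign, such as the Fbl interaction (-0.133 to 0.3). With arrays scaled to one median, calls over all genes numbered 2020 (54.5% higher) in TLR4 null and 1789 (69.4% higher) in wild type, instead of 3088 (45.7% higher) and 2815 (46.7% higher), while 17 and 19 ribosome biogenesis genes passed. Over all genes, calls between genotypes were unstable, and without TLR4 null ischemic replicate 3 the interaction had 15 calls over all genes and 0 among ribosome biogenesis genes. With a replicate block 19 passed in TLR4 null and 20 in wild type. The labels do not say what the replicate numbers mark. Deviations of same-numbered arrays correlated at r = -0.0622 to 0.104 over 12 pairs, 1 of them above 0.1. With 3 arrays a group, these values cannot show whether same-numbered arrays share more than a number.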
